A study of Xenopus laevis with 6 samples.

Results

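Cilia are built and maintained by intraflagellar transport (IFT), in which trains of IFT-A and IFT-B protein complexes carry cargo along the axoneme. Kinesin-2 pulls the trains outward from the basal body, a modified centriole that docks at the cell surface. The BBSome is a coat-like complex that moves membrane proteins with the trains, and the transition zone at the ciliary base gates what enters. In the Xenopus epidermis, multiciliated cells make many basal bodies and beat their cilia to move fluid over the embryo, while other ectodermal cells use the same centrosomal proteins in division.

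The genes described here carry a single platform symbol that begins with ift, bbs, ttc, tctn, or cep followed by digits, or that is kif3a, kif3b, kifap3, arl3, arl6 or ofd1. Each gene was read from its brightest probe set. This gave 58 genes of 11303 on the array, drawn from 81 probe sets. No probe set with a single symbol matched tmem67, nphp or arl13b. The symbols gather 11 IFT-B genes, 1 IFT-A gene, 3 kinesin-2 genes, 3 BBSome subunits, 2 BBSome chaperonin-like genes, 2 ARL GTPases, 2 transition zone genes and 22 other centriole or basal body genes. The remaining 12 are genes named for tetratricopeptide (TPR) repeats. One of these, ttc29.L, belongs to motile axonemes, and several others have known roles away from cilia, so the label fits only part of the ttc group.

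Expression was measured in Xenopus laevis animal caps, explants of blastula ectoderm that become epidermis when grown alone. All cells of 4-cell embryos were injected on the animal side with 80 ng of a control morpholino (Control MO), with 40 ng each of a pair against ERK3 (ERK3 MO1/2), or with 40 ng each of a pair against TFAP2A (TFAP2A MO1/2). ERK3 is a kinase of the atypical MAP kinase branch, and TFAP2A (AP-2 alpha) is a transcription factor of early ectoderm. Caps were cut at stage 9, cultured without other treatment and harvested at stage 15, with 2 arrays per group that the labels call biological replicates. A cap holds several epidermal cell types, so fewer cells of a type and less RNA per cell cannot be told apart.

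Median intensity lay between 23.2 and 24.6 on the arrays, and log2 values correlated at 0.987 to 0.989 within groups and 0.962 to 0.983 between groups, across probe sets. Of 23 genes on an epidermis marker list, 20 lay above the array median on all 6 arrays, against 5 of 18 neural and 2 of 24 mesoderm and endoderm markers. Morpholinos block translation or splicing, so target transcripts need not fall: tfap2a.L read 1126 and 753 in the controls, 1817 and 1425 after ERK3 knockdown and 1495 and 1287 after TFAP2A knockdown, and did not pass in either knockdown (adjusted p = 0.0847 and 0.171). The other copy, tfap2a.S, read 718 and 528 in the controls, 1237 and 1056 after ERK3 knockdown and 718 and 742 after TFAP2A knockdown; it rose by 0.89 ± 0.18 with ERK3 MO1/2 (adjusted p = 0.0362), against 0.24 ± 0.18 with TFAP2A MO1/2 (adjusted p = 0.471). ERK3 (mapk6) had 0 probe sets with its symbol. These values therefore do not show how far either target was reduced. The 3′ gapdh control probe set was lower in ERK3 knockdown caps, at 42.1 and 84.2, than in control caps, at 296.2 and 335.4, with 180.5 and 242.5 in TFAP2A knockdown caps. Its bearing on the genes below was not tested.

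All changes below are log2 differences of group means with the standard error (SE) of limma's moderated fit, 2 arrays per group. A gene was called at a Benjamini-Hochberg adjusted p under 0.05 over all 32539 probe sets tested, two-sided. Intensities are RMA values on a linear scale and are not compared between genes, since each probe set has its own brightness.

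In ERK3 knockdown caps 8 of the 58 genes fell and 3 rose, and the other 47 did not pass. Over all 11303 genes, 7.88% were called lower and 3.95% higher in that comparison, against 13.8% and 5.17% of the 58. The median change of the 58 was -0.22, beside 0.01 for all genes. Both ERK3 arrays lay below both control arrays for 28 of the 58 genes (48.3%; 29.9% of all genes) and above them for 12 (20.7%; 28.7% of all genes). By array, the median of the 58 against the control mean was -0.16 and -0.29 after ERK3 knockdown. The control arrays gave -0.04 and 0.04, which mirror each other because both are set against their own mean. They are not a measure of spread to hold against the other arrays.

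In TFAP2A knockdown caps 6 of the 58 fell, 0 rose and 52 did not pass. An unadjusted p under 0.05 was found for 16 of the 58, against 3435 of all 11303 genes. The share of all genes called lower there was 7.41%, and that called higher 4.91%, against 10.3% and 0 of the 58. The median change was -0.23, beside 0.01 for all genes. Both TFAP2A arrays lay below both control arrays for 28 of the 58 (29.6% of all genes) and above them for 3 (5.17%; 29.3% of all genes). The array medians were -0.12 and -0.40. The comparisons share their control arrays, so a high or low control array moves both. The heat map of the 58 genes by array shows each value: 41 of the 58 mean changes were below 0 with ERK3 MO1/2 and 44 with TFAP2A MO1/2, beside 48.8% and 48.9% of all genes.

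**Figure D1:**
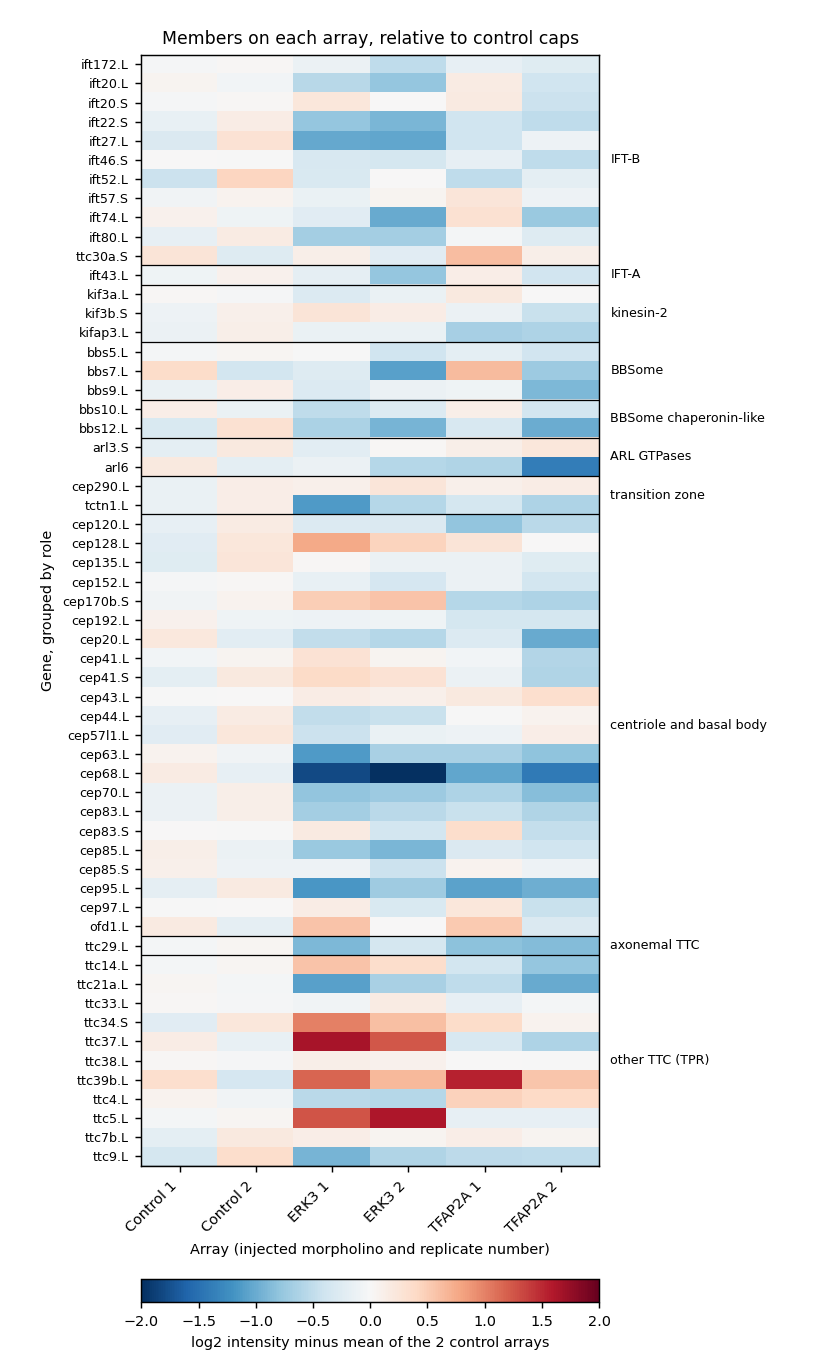
Heat map of 58 genes (rows, grouped by role) on the 6 arrays (columns), coloured by log2 intensity minus the mean of the 2 control arrays, from -2 (blue) to 2 (red). The row of cep68.L is blue in all 4 knockdown columns, and those of ttc37.L and ttc5.L are dark red in the ERK3 columns.

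Among IFT-B genes, ift22.S and ift27.L fell in ERK3 knockdown caps (18.2% of 11, against 7.88% of all genes) and the other 9 did not pass. Both encode small GTPase-like subunits of the complex, ift22 a Rab-like protein also named rabl5 and ift27 one also named rabl4. Transcript levels of ift22.S were 180.3 and 223 in the controls, 117 and 106 after ERK3 knockdown and 151 and 140.5 after TFAP2A knockdown. The ERK3 arrays were the lowest and no groups overlapped. The fall with ERK3 MO1/2 was 0.85 ± 0.15, or 1.80-fold (adjusted p = 0.0261), and the change with TFAP2A MO1/2 was -0.46 ± 0.15 (adjusted p = 0.113). A dimmer probe set of ift22.S changed by -0.35 with ERK3 MO1/2 and was not called (adjusted p = 0.221). Fitted with limma on only the ERK3 and control arrays, ift22.S lost its call (adjusted p = 0.0537).

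Levels of ift27.L were 40.2 and 59.6 in the controls, 24.2 and 23.7 after ERK3 knockdown and 37.2 and 45.6 after TFAP2A knockdown. The ERK3 arrays lay apart from the others, while TFAP2A and control arrays overlapped. The fall with ERK3 MO1/2 was 1.03 ± 0.22, 2.04-fold (adjusted p = 0.0378), and the change with TFAP2A MO1/2 was -0.25 ± 0.22 (adjusted p = 0.54). Its probe set carries the manufacturer's suffix for probes that can match several transcripts. Averaged with a second, dim probe set, the ERK3 change of ift27.L was -0.70 and was not called (adjusted p = 0.137). The call was also lost after repeated quantile normalization (adjusted p = 0.0505) and with 16 added to each intensity (adjusted p = 0.0734).

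The IFT-B gene nearest to a call was ift80.L, a subunit of the peripheral part of IFT-B. It read 142 and 178 in the controls, 99.05 and 99.4 after ERK3 knockdown and 156 and 132 after TFAP2A knockdown, a difference of -0.68 ± 0.16 with ERK3 MO1/2 (adjusted p = 0.0517). Its second probe set passed, at -0.75 ± 0.14 (adjusted p = 0.0289), reading 64.8 and 78.7 with Control MO and 43.0 and 41.8 with ERK3 MO1/2. In both probe sets the ERK3 arrays were below all others. The brighter of them carries the manufacturer's suffix for probes that can match several transcripts, as for ift27.L.

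The L and S copies of ift20, the IFT-B subunit that also resides at the Golgi, read differently. Levels of ift20.L were 243 and 225 in the controls, 159 and 137 after ERK3 knockdown and 261 and 178 after TFAP2A knockdown, with the ERK3 arrays the lowest. Its ERK3 difference was -0.66 ± 0.21 (adjusted p = 0.101). Levels of ift20.S were 97.8 and 102 in the controls, 117 and 101 after ERK3 knockdown and 114 and 74.5 after TFAP2A knockdown, and all groups overlapped. Its ERK3 difference was 0.12 ± 0.22 (adjusted p = 0.776), and the difference between the copies was not tested.

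The other IFT-B genes did not pass in any comparison. For ift172.L, ift46.S, ift52.L, ift57.S, ift74.L and ttc30a.S, the last a homologue of the IFT70 subunit, the ERK3 differences ranged from -0.62 (ift74.L) to -0.04 (ift57.S). Levels of ift46.S, a core subunit, were 151 and 149 in the controls, 119.7 and 117 after ERK3 knockdown and 133 and 105 after TFAP2A knockdown. Its differences were -0.34 ± 0.15 with ERK3 MO1/2 and -0.34 ± 0.15 with TFAP2A MO1/2, with 95% intervals of -0.71 to 0.03 and -0.71 to 0.03. Levels of ift57.S were 233 and 257 in the controls, 224 and 253 after ERK3 knockdown and 290.2 and 228 after TFAP2A knockdown, with intervals of -0.44 to 0.36 and -0.33 to 0.47 around differences near 0. Levels of ttc30a.S spread widely within groups, with 549 and 381 in control caps and 701 and 496 in TFAP2A knockdown caps.

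Over the 11 IFT-B genes the median change was -0.34 with ERK3 MO1/2, with 10 below 0, and -0.20 with TFAP2A MO1/2, with 9 below 0 and 0 called. In the direct contrast, ERK3 MO1/2 minus TFAP2A MO1/2, the median was -0.39 and 0 of the 11 were called. A single gene, ift43.L, was counted as IFT-A. It read 89.2 and 99.5 in the controls, 82.9 and 55.3 after ERK3 knockdown and 103 and 72.2 after TFAP2A knockdown. Its differences of -0.48 ± 0.25 and -0.13 ± 0.25 did not pass (adjusted p = 0.29 and 0.812).

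Of the kinesin-2 genes, kifap3.L, which encodes the non-motor accessory subunit, fell in TFAP2A knockdown caps and the motor genes did not pass. This was 1 of 3, in a comparison where 7.41% of all genes were called lower. Levels of kifap3.L were 17.01 and 19.9 in the controls, 16.8 and 16.8 after ERK3 knockdown and 11.6 and 12.01 after TFAP2A knockdown. The TFAP2A arrays were lower than all others. The fall was 0.64 ± 0.13, or 1.56-fold (adjusted p = 0.0344), against -0.13 ± 0.13 with ERK3 MO1/2 (adjusted p = 0.574). Averaged with a second probe set that lay under the lower quartile of the arrays, the TFAP2A change of kifap3.L was -0.33 and was not called (adjusted p = 0.112). It was not called with an intensity trend and robust prior either (adjusted p = 0.0568).

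The motor gene kif3a.L read 48.2 and 47.1 in the controls, 39.5 and 43.3 after ERK3 knockdown and 54.5 and 48.1 after TFAP2A knockdown, with differences of -0.20 ± 0.13 and 0.10 ± 0.13. The motor gene kif3b.S read 279 and 325 in the controls, 359 and 333 after ERK3 knockdown and 277 and 221 after TFAP2A knockdown, highest in ERK3 and lowest in TFAP2A knockdown caps. Its direct contrast was 0.48 ± 0.16 (adjusted p = 0.165) and did not pass.

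None of the 7 BBSome, chaperonin-like and ARL genes was called by limma in any comparison. Among the BBSome subunits, bbs5.L read 49.6 and 52.3 in the controls, 50.6 and 38.7 after ERK3 knockdown and 44.4 and 39.0 after TFAP2A knockdown, with 95% intervals of -0.62 to 0.21 (ERK3) and -0.71 to 0.12 (TFAP2A). Levels of bbs7.L varied within every group, from 60.1 and 36.1 in control caps to 72.3 and 28.2 in TFAP2A knockdown caps, and its SE was the largest of the subunits, at 0.52. For bbs9.L the differences were -0.20 ± 0.27 and -0.50 ± 0.27.

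Both chaperonin-like genes, whose products help to assemble the BBSome, were lower on both ERK3 arrays than on either control array. The same held for 29.9% of all genes. Levels of bbs12.L were 71.6 and 109 in the controls, 57.1 and 46.6 after ERK3 knockdown and 70.6 and 44.3 after TFAP2A knockdown. Its ERK3 difference was -0.78 ± 0.30 (adjusted p = 0.157), and its TFAP2A difference -0.66 ± 0.30 (adjusted p = 0.221). For bbs10.L they were -0.39 ± 0.21 and -0.12 ± 0.21.

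The GTPase gene arl6, whose product recruits the BBSome to membranes, read 34.1 and 25.96 in the controls, 27.5 and 20.02 after ERK3 knockdown and 19.6 and 11.5 after TFAP2A knockdown. The TFAP2A arrays were the lowest, and the difference of -0.99 ± 0.30 did not pass (adjusted p = 0.0957). Levels of arl3.S, a GTPase that releases lipid-linked cargo in the cilium, were 119.5 and 155 in the controls, 118 and 139 after ERK3 knockdown and 148 and 160.2 after TFAP2A knockdown, with differences of -0.09 ± 0.18 and 0.18 ± 0.18.

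At the transition zone, tctn1.L, which encodes tectonic-1, read 44.8 and 53.3 in the controls, 22.3 and 32.9 after ERK3 knockdown and 38.3 and 31.9 after TFAP2A knockdown. All knockdown arrays lay below the controls. The ERK3 difference was -0.85 ± 0.22 (adjusted p = 0.0658) and the TFAP2A difference -0.48 ± 0.22 (adjusted p = 0.233), neither of them called. Its second probe set changed by -0.28 and -0.02. The probe set of cep290.L lay under the lower quartile on all 6 arrays, from 3.05 to 3.96, so no change is given for it.

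Among the 22 centriole and basal body genes, 5 fell and 1 rose with ERK3 MO1/2, and 4 fell with TFAP2A MO1/2, beside 7.88%, 3.95% and 7.41% of all genes. Called lower in each comparison were cep68.L, cep70.L and cep95.L, and since both comparisons use the same control arrays, one does not repeat the other. Fitted with limma on only the groups compared, cep70.L lost both calls (ERK3, adjusted p = 0.0545, and TFAP2A, adjusted p = 0.0574). There cep95.L lost its ERK3 call (adjusted p = 0.0765). The medians of the 22 were -0.25 and -0.33.

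The largest fall was that of cep68.L, which encodes a protein of the linker that holds centrosomes together. Its levels were 60.6 and 47.8 in the controls, 15.4 and 11.9 after ERK3 knockdown and 26.1 and 20.2 after TFAP2A knockdown, with no overlap between any groups. The fall was 1.99 ± 0.21 with ERK3 MO1/2, 3.97-fold (adjusted p = 0.00973), and 1.23 ± 0.21 with TFAP2A MO1/2, 2.34-fold (adjusted p = 0.0225). A second probe set read 30.4 and 24.0, 10.8 and 10.3, and 17.8 and 17.1 in the same order of groups. It fell by 1.36 ± 0.15 with ERK3 MO1/2 (adjusted p = 0.0101), while its change of -0.63 ± 0.15 with TFAP2A MO1/2 did not pass (adjusted p = 0.0514). With 16 added to each intensity before the logarithm, the changes of cep68.L shrank to -1.24 and -0.84; the constant ended the calls of cep63.L, cep95.L and ift27.L with ERK3 MO1/2 and of ttc29.L with TFAP2A MO1/2, but neither call of cep68.L.

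The centrosomal gene cep95.L read 332 and 423 in the controls, 166 and 229 after ERK3 knockdown and 178 and 189 after TFAP2A knockdown, with both knockdowns apart from the controls. It fell by 0.94 ± 0.20 (ERK3, adjusted p = 0.0409) and 1.03 ± 0.20 (TFAP2A, adjusted p = 0.0314). With the constant of 16 the ERK3 call of cep95.L was lost (adjusted p = 0.0612). For cep70.L, which encodes a centrosomal coiled-coil protein, levels were 159 and 188 in the controls, 100.03 and 104 after ERK3 knockdown and 113 and 95.8 after TFAP2A knockdown. The falls were 0.76 ± 0.15 (adjusted p = 0.0332) and 0.73 ± 0.15 (adjusted p = 0.0349), and the direct contrast between the knockdowns was -0.03 ± 0.15 with a 95% interval of -0.40 to 0.34.

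The genes cep63.L and cep85.L were called lower with ERK3 MO1/2 but not with TFAP2A MO1/2. Levels of cep63.L, which acts with cep152 in centriole duplication, were 75.7 and 69.0 in the controls, 33.0 and 46.3 after ERK3 knockdown and 46.3 and 41.2 after TFAP2A knockdown. It fell by 0.89 ± 0.19 with ERK3 MO1/2 (adjusted p = 0.0406), and its difference with TFAP2A MO1/2 was -0.73 ± 0.19 (adjusted p = 0.0647). The ERK3 call of cep63.L was lost after repeated quantile normalization (adjusted p = 0.0508) and with the constant of 16 (adjusted p = 0.053). Both knockdowns were below the controls, and the direct contrast did not pass (-0.16 ± 0.19, adjusted p = 0.727).

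Levels of cep85.L, a centrosomal gene, were 24.4 and 20.9 in the controls, 13.4 and 12.02 after ERK3 knockdown and 18.6 and 17.1 after TFAP2A knockdown, in 3 steps without overlap. It fell by 0.83 ± 0.14 with ERK3 MO1/2 (adjusted p = 0.0236), as did its second probe set, by 0.93 ± 0.14 (adjusted p = 0.0178). The brighter probe set of cep85.L is marked by the manufacturer as prone to cross-hybridisation. Both probe sets carry the same target name, so the second is not an independent reading. The S copy, cep85.S, read 220.0 and 191 in the controls, 191 and 152 after ERK3 knockdown and 216 and 192 after TFAP2A knockdown and changed by -0.26 ± 0.17 (adjusted p = 0.365). The difference between the copies was not tested.

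A different pattern was that of cep170b.S, a paralogue of the microtubule-binding centriolar appendage gene cep170, which was called in opposite directions. Its levels were 167 and 183 in the controls, 245 and 259 after ERK3 knockdown and 118 and 113 after TFAP2A knockdown, with 3 separate groups. It rose by 0.53 ± 0.12 with ERK3 MO1/2 (adjusted p = 0.0491) and fell by 0.59 ± 0.12 with TFAP2A MO1/2 (adjusted p = 0.0347). The direct contrast was 1.12 ± 0.12, 2.17-fold higher in ERK3 knockdown caps (adjusted p = 0.0181). The ERK3 call of cep170b.S, and with it the pair of opposite calls, was lost with an intensity trend and robust prior (adjusted p = 0.0587) and without dim probe sets (adjusted p = 0.053).

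Among centriole genes that did not pass, cep83.L, which encodes a distal appendage protein needed to dock the basal body, read 164 and 194 in the controls, 112 and 123 after ERK3 knockdown and 130.3 and 118 after TFAP2A knockdown. All knockdown arrays were below the controls, with differences of -0.61 ± 0.14 (ERK3, adjusted p = 0.0522) and -0.53 ± 0.14 (TFAP2A, adjusted p = 0.0732). Its S copy read 56.1 and 55.7 in the controls, 63.0 and 43.3 after ERK3 knockdown and 71.5 and 40.0 after TFAP2A knockdown and overlapped throughout. The centriole elongation gene cep120.L read 227 and 285 in the controls, 209 and 208 after ERK3 knockdown and 148 and 175 after TFAP2A knockdown, with a TFAP2A difference of -0.66 ± 0.16 (adjusted p = 0.0549).

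The centriole assembly genes cep152.L, cep192.L and cep135.L did not pass. Differences were -0.24 ± 0.14 and -0.24 ± 0.14 for the duplication scaffold cep152.L. They were -0.10 ± 0.12 and -0.35 ± 0.12 for cep192.L, which recruits pericentriolar material, and -0.04 ± 0.19 and -0.19 ± 0.19 for the cartwheel-associated gene cep135.L. Both copies of cep41, linked to tubulin glutamylation in cilia, were higher on both ERK3 arrays than on either TFAP2A array. The same held for 25.5% of all genes. Direct contrasts were 0.50 ± 0.20 (cep41.L) and 0.69 ± 0.21 (cep41.S). Neither passed (adjusted p = 0.243 and 0.138).

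Levels of ofd1.L, a gene of the distal centriole and its satellites, were 68.8 and 53.2 in the controls, 89.4 and 60.9 after ERK3 knockdown and 87.3 and 49.7 after TFAP2A knockdown and overlapped, with 95% intervals of -0.51 to 1.08 and -0.67 to 0.92. The other genes were cep128.L, cep20.L, cep43.L, cep44.L, cep57l1.L and cep97.L. Their ERK3 differences lay between -0.52 (cep20.L) and 0.60 (cep128.L), and their TFAP2A differences between -0.64 (cep20.L) and 0.27 (cep43.L).

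**Figure D2:**
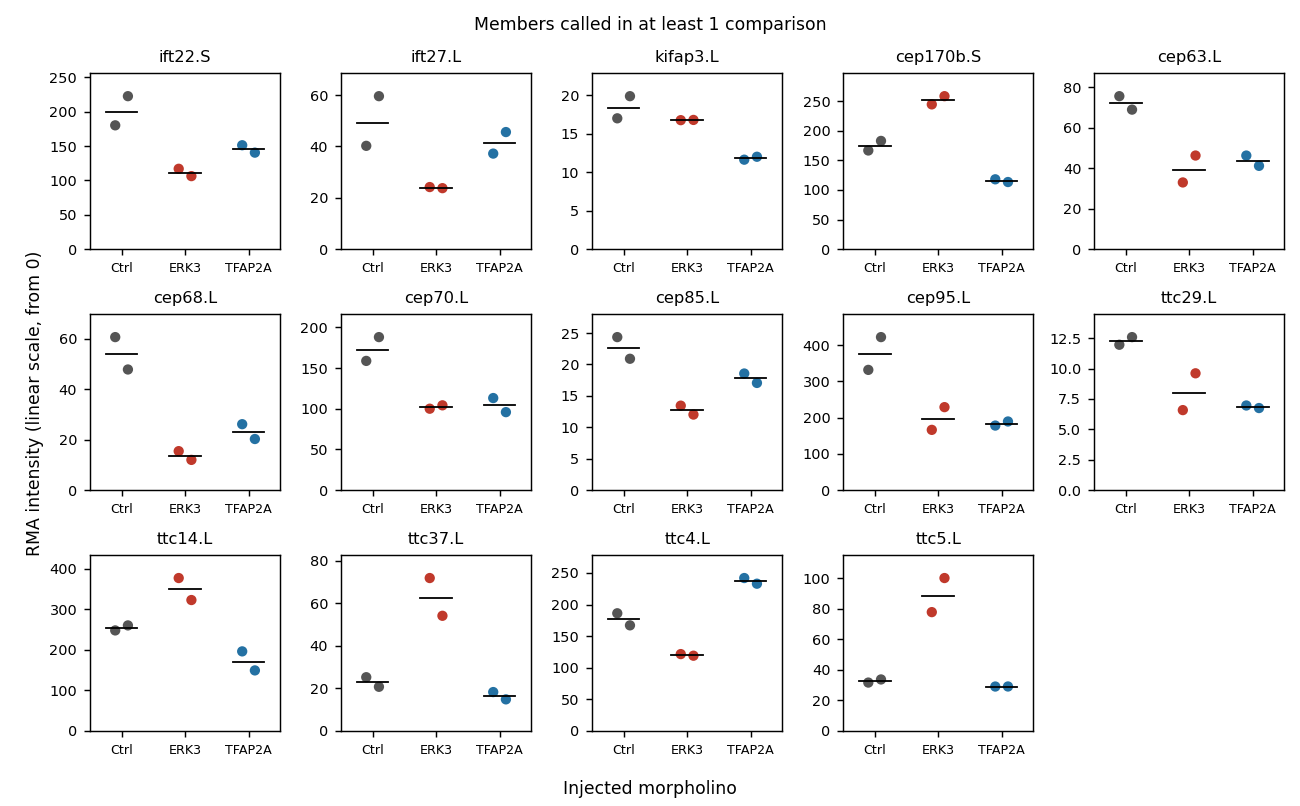
RMA intensity (linear axes from 0) of the 14 genes called in at least 1 comparison, 1 panel per gene. Points are single arrays in the order control (grey), ERK3 (red) and TFAP2A (blue), and bars are geometric means of 2 arrays. The cep68.L points fall in both knockdowns, and the ttc5.L and ttc37.L points rise with ERK3 MO1/2 and not with TFAP2A MO1/2.

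Of the ttc genes outside IFT, the called genes with known roles act away from cilia, apart from ttc29.L. Among the other 11 ttc5.L and ttc37.L rose and ttc4.L fell with ERK3 MO1/2. With TFAP2A MO1/2, 0 of the 11 were called and 4 had an unadjusted p under 0.05, against 3435 of all 11303 genes. Of all genes, 3.95% were called higher and 7.88% lower with ERK3 MO1/2, and 4.91% and 7.41% with TFAP2A MO1/2. The product of ttc5 binds nascent tubulin chains and triggers decay of tubulin mRNA in human cells, that of ttc37 is the scaffold of the SKI complex in cytoplasmic RNA decay, and that of ttc4 is a co-chaperone of HSP90.

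Levels of ttc5.L were 31.7 and 33.7 in the controls, 77.8 and 100.05 after ERK3 knockdown and 29.1 and 29.1 after TFAP2A knockdown. The ERK3 arrays stood far above the rest. The rise was 1.43 ± 0.16, or 2.70-fold (adjusted p = 0.00996), against -0.17 ± 0.16 with TFAP2A MO1/2 (adjusted p = 0.573), and the direct contrast was 1.60 ± 0.16 (adjusted p = 0.0141).

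Levels of ttc37.L were 25.3 and 20.8 in the controls, 71.9 and 54.1 after ERK3 knockdown and 18.3 and 14.8 after TFAP2A knockdown, again with the ERK3 arrays apart. The rise was 1.45 ± 0.20, 2.72-fold (adjusted p = 0.0148), and the direct contrast was 1.92 ± 0.20, 3.79-fold (adjusted p = 0.0171). The TFAP2A difference of -0.47 ± 0.20 did not pass (adjusted p = 0.198).

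Levels of ttc4.L were 186 and 167 in the controls, 122 and 119 after ERK3 knockdown and 242 and 233 after TFAP2A knockdown, in 3 separate groups. It fell by 0.55 ± 0.12 with ERK3 MO1/2 (adjusted p = 0.0439), its TFAP2A difference was 0.43 ± 0.12 (adjusted p = 0.0802), and it was lower in the direct contrast by 0.98 ± 0.12 (adjusted p = 0.0215). The ERK3 call of ttc4.L was lost with an intensity trend and robust prior (adjusted p = 0.0517). Levels of ttc14.L were 248 and 260.4 in the controls, 377 and 323 after ERK3 knockdown and 196 and 149 after TFAP2A knockdown, with the ERK3 arrays highest and the TFAP2A arrays lowest. The direct contrast of 1.03 ± 0.17 was called (adjusted p = 0.0343), while neither comparison with the controls passed (0.46 ± 0.17 and -0.57 ± 0.17). Fitted with limma on only the ERK3 and TFAP2A arrays, the direct calls of ttc14.L (adjusted p = 0.0743) and ttc4.L (adjusted p = 0.0518) were lost.

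Of ttc genes tied to motile cilia, ttc29.L, an axonemal dynein-associated gene of sperm flagella in mouse and human, fell with TFAP2A MO1/2. It was dim, at 11.96 and 12.6 in the controls, 6.58 and 9.61 after ERK3 knockdown and 6.96 and 6.75 after TFAP2A knockdown. The fall was 0.84 ± 0.20 (adjusted p = 0.0472), also called in its second probe set, at -0.66 ± 0.15 (adjusted p = 0.0477). That probe set lay under the lower quartile after TFAP2A knockdown, at 6.04 and 5.81, with 8.69 and 10.06 in the controls. The TFAP2A call of ttc29.L was lost after repeated quantile normalization (adjusted p = 0.0676) and with the constant of 16, where the change was -0.31 (adjusted p = 0.0714). The ERK3 difference was -0.63 ± 0.20 (adjusted p = 0.101).

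The gene ttc21a.L is named as a paralogue of the IFT-A subunit gene ttc21b, but RefSeq lists both names for this entry. It was not counted as IFT-A here. Its levels were 36.6 and 34.9 in the controls, 16.8 and 22.9 after ERK3 knockdown and 25.2 and 17.8 after TFAP2A knockdown. They were lower on all knockdown arrays. Its differences of -0.87 ± 0.23 (adjusted p = 0.0642) and -0.76 ± 0.23 (adjusted p = 0.0884) did not pass. The gene ttc39b.L, tied to lipid metabolism in mouse, read 26.1 and 16.5 in the controls, 46.4 and 32.5 after ERK3 knockdown and 60.1 and 30.7 after TFAP2A knockdown, higher on all knockdown arrays than on either control array, and did not pass (adjusted p = 0.197 and 0.146). For ttc34.S, ttc7b.L and ttc9.L the ERK3 differences were 0.81, 0.09 and -0.77, none called. The probe sets of ttc33.L and ttc38.L read between 5.34 and 6.83, near the lower quartile of the arrays.

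In the direct contrast, ERK3 MO1/2 minus TFAP2A MO1/2, 4 of the 58 were higher and 1 lower, against 2.58% and 3.11% of all genes. They were ttc5.L, ttc37.L, ttc14.L and cep170b.S, higher, and ttc4.L, lower. None of the 24 IFT, kinesin-2, BBSome, ARL and transition zone genes was called by limma there. Both ERK3 arrays lay below both TFAP2A arrays for 15 of the 58 (25.9%; 26.6% of all genes) and above them for 15 (25.5% of all genes). The median of the 58 was -0.02, beside 0.00 for all genes. The scatter of changes in both knockdowns shows these 5 genes off the diagonal.

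**Figure D3:**
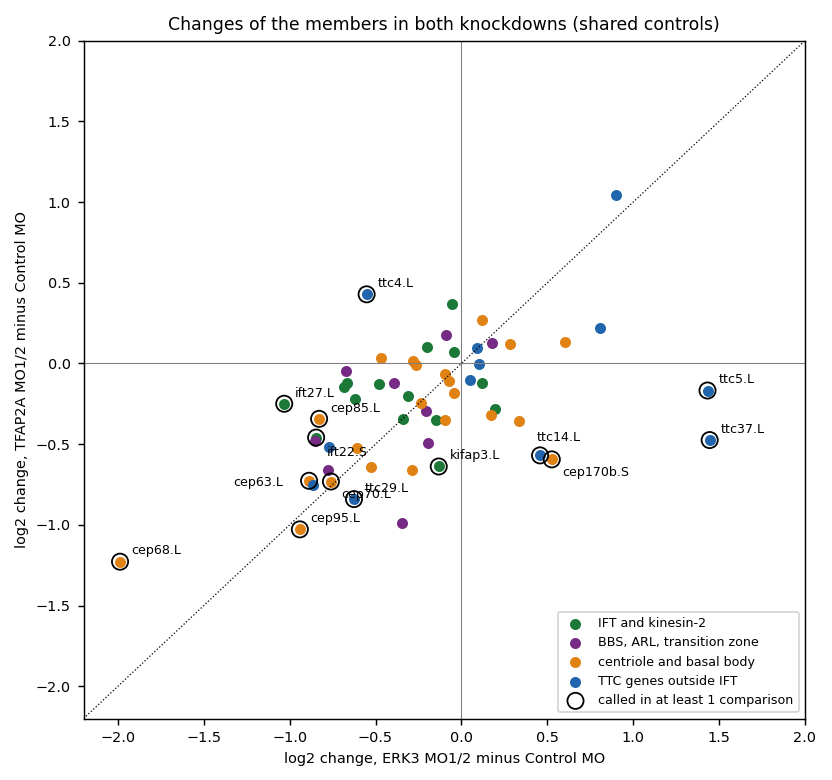
Log2 change of each of the 58 genes with ERK3 MO1/2 (x axis) and TFAP2A MO1/2 (y axis), both against the same 2 control arrays, coloured by role. Circles mark the 14 genes called in at least 1 comparison, and the dotted line marks equal change. ttc5.L and ttc37.L lie far to the right near a TFAP2A change of -0.17 and -0.47, and cep68.L lies at the lower left.

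Leaving out 1 array leaves a group with a lone array, whose spread is then assumed from the other groups, and fewer probe sets of any kind pass. The genes called can then include some not called with all arrays, as in the ERK3 comparison without ERK3 MO1/2 replicate 2. With all arrays, 3439 (ERK3), 3435 (TFAP2A) and 2675 (direct) of all 11303 genes had an unadjusted p under 0.05. Without Control MO replicate 1 or 2, limma called 0 of all 32539 probe sets in the ERK3 comparison (smallest adjusted p = 0.0519 and 0.0558), so the 0 of the 58 called there says nothing about these genes in particular. In the TFAP2A comparison 697 and 7 probe sets were called without those arrays, and 0 of the 58. Unadjusted p-values under 0.05 among the 58 then numbered 19 and 17 (ERK3) and 17 and 13 (TFAP2A), against 23 and 16 with all arrays. Without ERK3 MO1/2 replicate 1, 2 of the 58 were called in the ERK3 comparison among 267 probe sets, and without replicate 2, 7 among 1675. Without TFAP2A MO1/2 replicate 1 or 2, 0 of the 58 were called in the TFAP2A comparison (18 and 9 at an unadjusted p under 0.05), among 658 and 81 probe sets. In the direct contrast at most 54 probe sets were called without any 1 of the ERK3 or TFAP2A arrays, and 0 of the 58 (10 to 15 at an unadjusted p under 0.05).

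An array outside a comparison adds only to the estimate of the spread. Leaving it out gave the same results as fitting only the groups compared, with their 2 arrays each. Fitted in that way, limma called 2002 (ERK3), 3000 (TFAP2A) and 295 (direct) of 32539 probe sets, against 3443, 3677 and 1552 with all arrays. Without either TFAP2A array 4 of the 58 were called in the ERK3 comparison, namely cep68.L, cep85.L, ttc5.L and ttc37.L. Without either ERK3 array 4 were called in the TFAP2A comparison, namely cep68.L, cep95.L, ttc29.L and a gene not called with all arrays. With a control array left out, 3 were called in the direct contrast. No call changed sign in any of these.

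Other genes of the same machinery were taken from lists of symbols. Of all genes, 7.88% were called lower and 3.95% higher with ERK3 MO1/2, and 7.41% and 4.91% with TFAP2A MO1/2. In the list of further IFT and ciliary dynein genes, medians were 0.06 (ERK3) and -0.13 (TFAP2A). With each knockdown 1 of 13 fell (7.69%, near the share of all genes) and 0 rose. It was rabl2b.L, a GTPase gene that acts with IFT-B, in both comparisons. Levels of rabl2b.L were 71.0 and 94.5 in the controls, 39.4 and 39.8 after ERK3 knockdown and 34.1 and 26.7 after TFAP2A knockdown, and it fell by 1.05 ± 0.19 (adjusted p = 0.0274) and 1.44 ± 0.19 (adjusted p = 0.013). The IFT-B gene cluap1.L was higher in ERK3 than in TFAP2A knockdown caps by 0.79 ± 0.13 (adjusted p = 0.0322).

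Of 14 further BBSome and membrane trafficking genes, rab8a.S fell by 0.58 ± 0.13 with ERK3 MO1/2 and arl2.L by 0.69 ± 0.13 with TFAP2A MO1/2 (adjusted p = 0.0424 and 0.0282). Each was 7.14% of the list, near the 7.88% and 7.41% of all genes called lower. Rab8 guides vesicles to the ciliary membrane, and ARL2 is the close relative of ARL3. The medians were 0.05 and 0.21. In the direct contrast 1 of the 14 was called higher (7.14%) and 2 lower (14.3%), against 2.58% and 3.11% of all genes. They were arl2.L (0.73 ± 0.13), higher, and rab3ip.S (-1.05 ± 0.20) and rab8a.S (-0.83 ± 0.13), lower.

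In the list of 15 further transition zone genes, medians were -0.09 and -0.03. In each comparison 4 fell (26.7%, against 7.88% and 7.41% of all genes) and 0 rose. They were iqcb1.L (nephrocystin-5), tmem107.L, cspp1.L and nek4.S in both. Levels of iqcb1.L were 133 and 141 in the controls, 70.0 and 80.1 after ERK3 knockdown and 83.4 and 82.2 after TFAP2A knockdown, with both knockdowns apart from the controls. Its falls were 0.87 ± 0.13 and 0.73 ± 0.13 (adjusted p = 0.0161 and 0.0235). The falls of tmem107.L were 1.06 ± 0.21 and 1.09 ± 0.21.

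Of 29 further centriole and basal body genes, 3 fell with ERK3 MO1/2 (lrrcc1.L, ccdc61.L and the centrin gene cetn3.S) and 2 with TFAP2A MO1/2 (cby1.S and the gamma-tubulin gene tubg1.S), with 0 higher. The shares called lower were 10.3% and 6.9%, against 7.88% and 7.41% of all genes. Levels of lrrcc1.L, a centrosomal gene, were 54.1 and 59.5 in the controls, 19.4 and 22.1 after ERK3 knockdown and 60.5 and 44.0 after TFAP2A knockdown. It fell by 1.45 ± 0.19 with ERK3 MO1/2 (adjusted p = 0.0127). Levels of cby1.S, a distal appendage-associated gene, were 42.9 and 46.9 in the controls, 44.5 and 45.1 after ERK3 knockdown and 23.3 and 22.1 after TFAP2A knockdown, and it fell by 0.98 ± 0.12 with TFAP2A MO1/2 (adjusted p = 0.0111).

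Markers of multiciliated cells were also measured. Of 51 such genes, none a member of the 58, 9 fell and 1 rose with ERK3 MO1/2 (median -0.35). With TFAP2A MO1/2, 11 fell and 1 rose (median -0.56). The shares called lower were 17.6% and 21.6%, against 7.88% and 7.41% of all genes. The summed intensity of the 51 was 10169 and 11135 in the controls, 11311 and 8982 after ERK3 knockdown and 9191 and 6879.8 after TFAP2A knockdown. Under the lower quartile on all arrays lay 0 of the 51. The sum weights bright probe sets, such as that of ccno.L, which read 1529 and 1675 in the controls, 2689.9 and 1804 after ERK3 knockdown and 1928 and 1428 after TFAP2A knockdown. The median over the 51, against the control mean, was -0.12 and 0.12 in the controls, which mirror each other by construction. It was -0.21 and -0.50 after ERK3 knockdown and -0.31 and -0.89 after TFAP2A knockdown. The cilia-associated gene cfap36.L and the centriole amplification gene ccdc78.S had the smallest adjusted p with ERK3 MO1/2, at -1.89 ± 0.19 and -1.38 ± 0.16. With TFAP2A MO1/2 they were -0.82 ± 0.19 and -1.73 ± 0.16, and the outer dynein arm gene dnai1.L fell by 1.41 ± 0.15. The ERK3 difference of dnai1.L was -0.22 ± 0.15, and its direct contrast of 1.19 ± 0.15 was called (adjusted p = 0.0199). Of the 51, 2 were called higher and 2 lower in the direct contrast (3.92% each, against 2.58% and 3.11% of all genes). Higher were dnai1.L and foxj1.2.L. Lower were cfap36.L, at -1.08 ± 0.19 (adjusted p = 0.037), and cfap45.L, at -1.03 ± 0.18 (adjusted p = 0.038). The marker that rose with ERK3 MO1/2 was gas8.S, by 0.93 ± 0.21 (adjusted p = 0.044), with a TFAP2A difference of 0.59 ± 0.21 (adjusted p = 0.129).

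Of the fate factors of these cells, foxj1.S and mcidas.S, chosen for naming after their values were seen, did not pass against the controls. The ciliary transcription factor gene rfx2.S rose by 0.81 ± 0.16 with TFAP2A MO1/2 (adjusted p = 0.0337), with an ERK3 difference of 0.04 ± 0.16 (adjusted p = 0.901). Levels of foxj1.S were 1785 and 1436 in the controls, 1971 and 1508 after ERK3 knockdown and 1299 and 1152 after TFAP2A knockdown. Levels of mcidas.S, the coregulator that starts centriole amplification, were 339 and 482 in the controls, 668 and 445 after ERK3 knockdown and 265 and 196 after TFAP2A knockdown. The ERK3 differences were 0.11 ± 0.19 and 0.43 ± 0.28, and the TFAP2A differences -0.39 ± 0.19 and -0.83 ± 0.28, with adjusted p between 0.12 and 0.768. A further FOXJ1 gene, foxj1.2.L, was higher in ERK3 than in TFAP2A knockdown caps by 1.10 ± 0.19 (adjusted p = 0.0355). Its TFAP2A difference against the controls was -0.79 ± 0.19 (adjusted p = 0.0515). Those of foxj1.L and myb.S were -0.56 ± 0.21 (adjusted p = 0.155) and -0.79 ± 0.21 (adjusted p = 0.0698). For the FOXJ1 genes, mcidas.S and myb.S both TFAP2A arrays lay below both control arrays, as for 29.6% of all genes. For ccno.L and ccno.S these arrays overlapped, and for rfx2.S both TFAP2A arrays lay above (29.3% of all genes). Among the other marker lists, 2 of 23 epidermis genes fell (8.7%) and 1 rose (4.35%) with ERK3 MO1/2, and 7 fell (30.4%) with TFAP2A MO1/2. Of 18 neural genes 1 fell (5.56%) in each comparison. Of 24 mesoderm and endoderm genes 6 fell (25%) with ERK3 MO1/2, while 1 fell (4.17%) and 2 rose (8.33%) with TFAP2A MO1/2. The shares of all genes were 7.88% lower and 3.95% higher (ERK3), and 7.41% and 4.91% (TFAP2A). The part of these markers and those of multiciliated cells in the changes of the 58 genes was not tested.

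**Figure D4:**
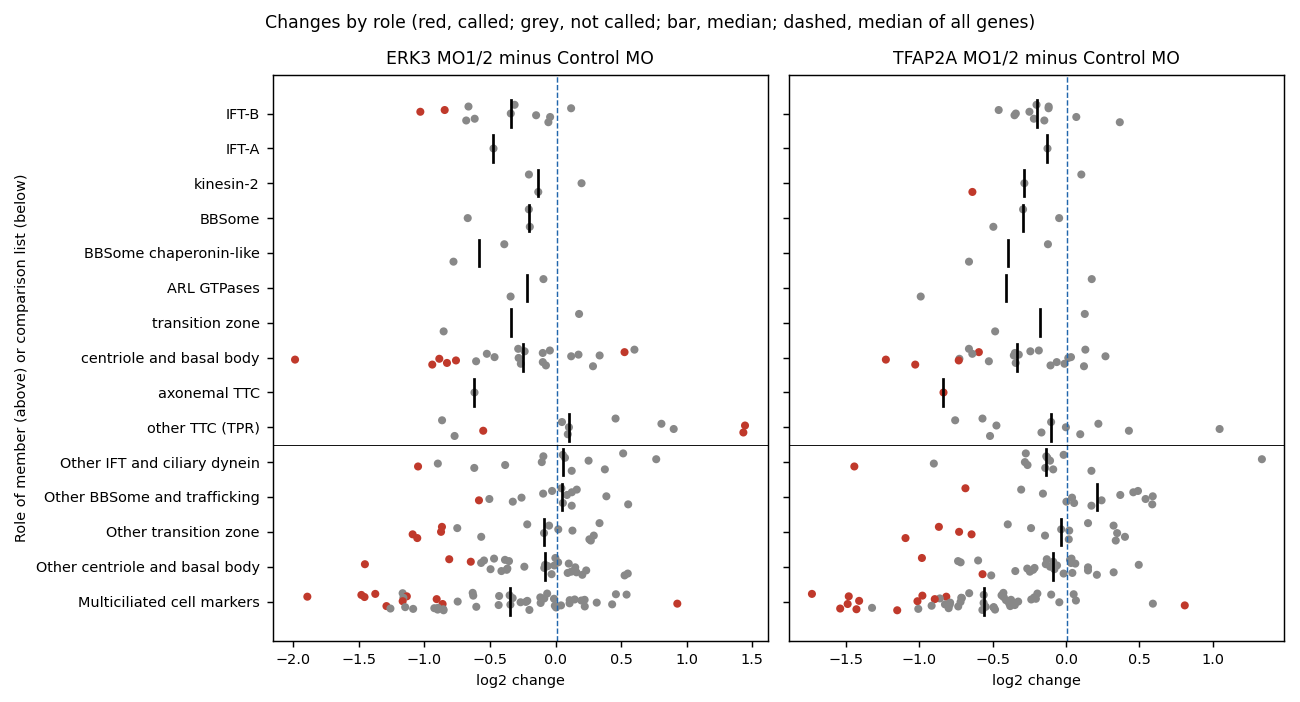
Log2 change (x axis) of every gene by role (upper rows) and in the comparison lists (lower rows), with ERK3 MO1/2 on the left and TFAP2A MO1/2 on the right. Red points were called, grey points were not, black bars are medians and the dashed line is the median of all genes. The IFT-B medians are -0.34 and -0.20, and those of the multiciliated cell markers are -0.35 and -0.56.

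Where a gene had more than 1 probe set, the others mostly moved the same way. Of 23 such probe sets in 18 genes, 17 had the sign of the brightest in the ERK3 comparison and 20 in that of TFAP2A. Among them, 3 were called with ERK3 MO1/2 (cep68.L, cep85.L and ift80.L) and 1 with TFAP2A MO1/2 (ttc29.L). That of cep85.L shares its target name with the brightest.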

How the data were processed

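The deposited intensity values are robust multiarray average (RMA) values of an Affymetrix Xenopus laevis 3′ expression array, made by the authors in Expression Console from scans read with GeneChip Operating Software 1.4, per the series' design text. RMA aligns arrays by quantiles, which can hide a change shared by most transcripts. Values were linear and log2 was taken with no constant. Of 32635 probe sets, 96 manufacturer controls were left out and 32539 tested. A platform annotation of GEO gave 1 symbol to 15495 of them, and 57 of the 58 genes matched RefSeq by identifier. Log2 values were fitted with limma 3.58.1 in R 4.3.3 (1 mean per group, 6 arrays, 3 residual and 2.99 prior degrees of freedom). The code was also run on simulated data with large changes and a common spread for all probe sets. Such data cannot show how well smaller changes are found on these arrays. Arrays have no read depth; their number limits the precision. "Under the lower quartile" means below the 25th percentile of that array on both arrays of a group.

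Named were all genes called in any comparison, up to 12 in each by adjusted p. Also named were all IFT, kinesin-2, BBSome, ARL and transition zone genes by value or range, ofd1, other copies and the 2 brightest of each role. Some, not all, called genes were named from the multiciliated cell markers and the lists of further ciliary genes. Of the epidermis, neural, and mesoderm and endoderm markers, only the tfap2a copies were named. The genes and lists were chosen with earlier results of these data known, and p-values measure only the spread between arrays called biological replicates. Alternatives were averaging probe sets, another variance prior, repeated quantile normalization, a filter on dim probe sets, an added constant of 16, the replicate number as a block, leaving out arrays, and fitting only 2 groups. Promoter and protein sequences were not used here.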

Additional observations from a re-analysis of the deposited data

How the results depend on the processing

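Averaging probe sets, the other variance prior, repeated quantile normalization and the filter on dim probe sets (55 of the 58 genes kept) left the counts of calls among the 58 genes within 1.5 times, and no called gene changed sign under any alternative. Adding 16 raised the count called higher with TFAP2A MO1/2 from 0 to 1. Fitted on the compared groups alone, limma called 2 lower and 4 in all with ERK3 MO1/2, and 0 lower and 3 in all in the direct contrast (17 at an unadjusted p under 0.05). That fit called 2002 (ERK3), 3000 (TFAP2A) and 295 (direct) of all 32539 probe sets, against 3443, 3677 and 1552 in the main fit. It lost the ERK3 calls of cep63.L, cep70.L, cep95.L, cep170b.S, ift22.S, ift27.L and ttc4.L, and the direct calls of ttc4.L and ttc14.L. In the TFAP2A comparison that fit lost the calls of cep70.L, cep170b.S and kifap3.L, and it called a gene that the main fit did not. The replicate number is shared by the groups but no label says that it pairs samples. Deviations of same-numbered arrays from their group means correlated at 0.535 to 0.595 over probe sets. With the replicate block 17 fell and 5 rose of 22 called with ERK3 MO1/2, and 14 fell and 2 rose of 16 with TFAP2A MO1/2. In the direct contrast 5 were lower and 6 higher of 11. The block also raised the calls over all 32539 probe sets, to 7945 (ERK3), 7934 (TFAP2A) and 4831 (direct), from 3443, 3677 and 1552. Leaving out 1 array gave 0 to 5 lower, 0 to 2 higher and 0 to 7 in all (ERK3), 0 to 4 lower and 0 to 4 in all (TFAP2A), and 0 lower, 0 to 3 higher and 0 to 3 in all (direct), with fewer samples in each fit. These counts can include genes not called with all arrays. With 1 array left out, the median changes ranged from -0.29 to -0.16, from -0.40 to -0.12, and from -0.16 to 0.10. The cause of the other shifts was not tested. With 2 arrays per group, a gene that did not pass may still differ.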
